A study of Mus musculus with 8 samples.

Results

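The genes described here are 37 genes of G2 and mitosis: kinases, cyclins, kinetochore and spindle proteins and proteins of cytokinesis, taken by name from a list of textbook members. All 37 were among the 24421 gene names of the deposited tables, and all 37 passed the filter on low values, which kept 12012 genes that reached 1 FPKM in 2 or more libraries. FPKM divides the fragments of a gene by its transcript length and by library depth, so levels of different genes can be set side by side. RNA was sequenced in 8 libraries of MCa-P1362, a mouse breast cancer line raised from a spontaneous mammary tumor of a Balb/c female. Flow cytometry had sorted the cells by EpCAM, an adhesion protein of the epithelial surface. There were 4 groups of 2 libraries: EpCAM+ cells of coculture, EpCAM- cells of coculture, EpCAM+ cells of monoculture and EpCAM- cells of monoculture.

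All 4 groups come from a single line, carry no stated allele or drug, and were grown in high glucose DMEM with fetal bovine serum. The sorted cells were pelleted and frozen at once, or after growth and a passage. The sources do not state which of these is meant by coculture and which by monoculture. They also do not state whether the 2 libraries of a group are separate cultures, so p-values measure the spread between libraries, which may be technical. The fractions carried the markers of their labels: all 10 epithelial markers were higher and all 10 mesenchymal markers lower in EpCAM+ cells of both cultures. Epithelial markers summed to 9732 to 10642 FPKM in EpCAM+ libraries and 19.3 to 34.8 FPKM in EpCAM- libraries. Mesenchymal markers summed to 12182 to 13151 FPKM in EpCAM- libraries. In EpCAM+ libraries they summed to 209 and 211 FPKM in coculture and to 17.2 and 17.4 FPKM in monoculture. Leukocyte markers summed to at most 0.241 FPKM and endothelial markers to at most 1.25 FPKM.

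Genes of this kind are transcribed late in the cell cycle. Their products drive entry into mitosis, attach chromosomes to the spindle, hold back anaphase until attachment is complete, and then separate the daughter cells. In resting cells the DREAM complex represses many of them through a promoter element called CHR (cell cycle genes homology region), and in dividing cells B-MYB and FOXM1 act through the same element, often next to CCAAT boxes bound by NF-Y. In RNA of a whole population a level reflects both the share of cells in these phases and the RNA per cell, and fewer cells in mitosis and less RNA per cell cannot be told apart.

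Promoters of 4 members are printed because Top2a differed most between the fractions, Ccnb2 and Kif11 changed in opposite directions in the fractions, and Mki67 fell in both. The sequences are from RefSeq (build GRCm38.p6), 5′ to 3′ on the gene's strand, and end at the base before the start of the transcript. Capitals mark CCAAT boxes (CCAAT, or ATTGG on the other strand) and CHR elements (TTTGAA or TTCGAA, or TTCAAA on the other strand; TTCGAA reads alike on both). The Top2a stretch is chr11:99024190-99024309, minus strand, and holds CCAAT boxes in both orientations between 2 CHR elements.
Top2a: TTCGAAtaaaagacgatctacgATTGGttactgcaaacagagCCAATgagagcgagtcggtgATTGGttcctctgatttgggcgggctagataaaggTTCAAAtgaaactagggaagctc
The Ccnb2 stretch is chr9:70421555-70421674, minus strand, with 3 CCAAT boxes; the CHR matches of this promoter lie outside the stretch.
Ccnb2: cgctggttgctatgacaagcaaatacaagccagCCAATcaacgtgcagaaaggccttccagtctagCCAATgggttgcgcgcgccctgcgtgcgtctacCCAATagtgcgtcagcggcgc
The Kif11 stretch is chr19:37376262-37376381, plus strand, with a CCAAT box upstream of a CHR element.
Kif11: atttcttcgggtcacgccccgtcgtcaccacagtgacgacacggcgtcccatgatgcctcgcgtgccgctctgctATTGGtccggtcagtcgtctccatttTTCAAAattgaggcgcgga
The Mki67 stretch is chr7:135716380-135716579, minus strand, with 3 CCAAT boxes followed by 2 CHR elements.
Mki67: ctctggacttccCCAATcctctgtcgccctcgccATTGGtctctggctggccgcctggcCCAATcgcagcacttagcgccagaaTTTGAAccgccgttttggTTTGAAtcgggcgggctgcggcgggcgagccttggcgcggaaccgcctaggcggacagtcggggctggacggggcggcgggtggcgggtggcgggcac

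RefSeq's table held a promoter, from 250 bases before to 50 bases after a start, for 32 of the 37 members; Tpx2, Kif20a, Ccna2, Aurkb and Incenp had none. The first promoter listed was read for each gene. A CHR element was present in 25 of the 32 (78.1%), against 13.3% of the 8965 promoters of genes tested and 19.4% of all 27025 promoters in the table. A CCAAT box was present in 25 of the 32 (78.1%), against 39.1% and 37.9%. Both were present in 22 of the 32 (68.8%), against 5.77% and 7.70%. These 3 comparisons are descriptions of sequence, and a match is not a site of binding. The CHR lay within 50 bases of the start in 23 members. Of the 18 members with 2 or more CCAAT boxes, the median distance from a box to the next was 33 bases, and 19 of 35 such distances were between 25 and 40 bases. Birc5, Nuf2, Mad2l1 and Nusap1 had neither element in this window. The E2F-like words TTCCCGC and TTTGGCG, read on both strands, occurred in 0 of the 32, against 11.2% of promoters of genes tested and 6.07% of all promoters.

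**Figure D1:**
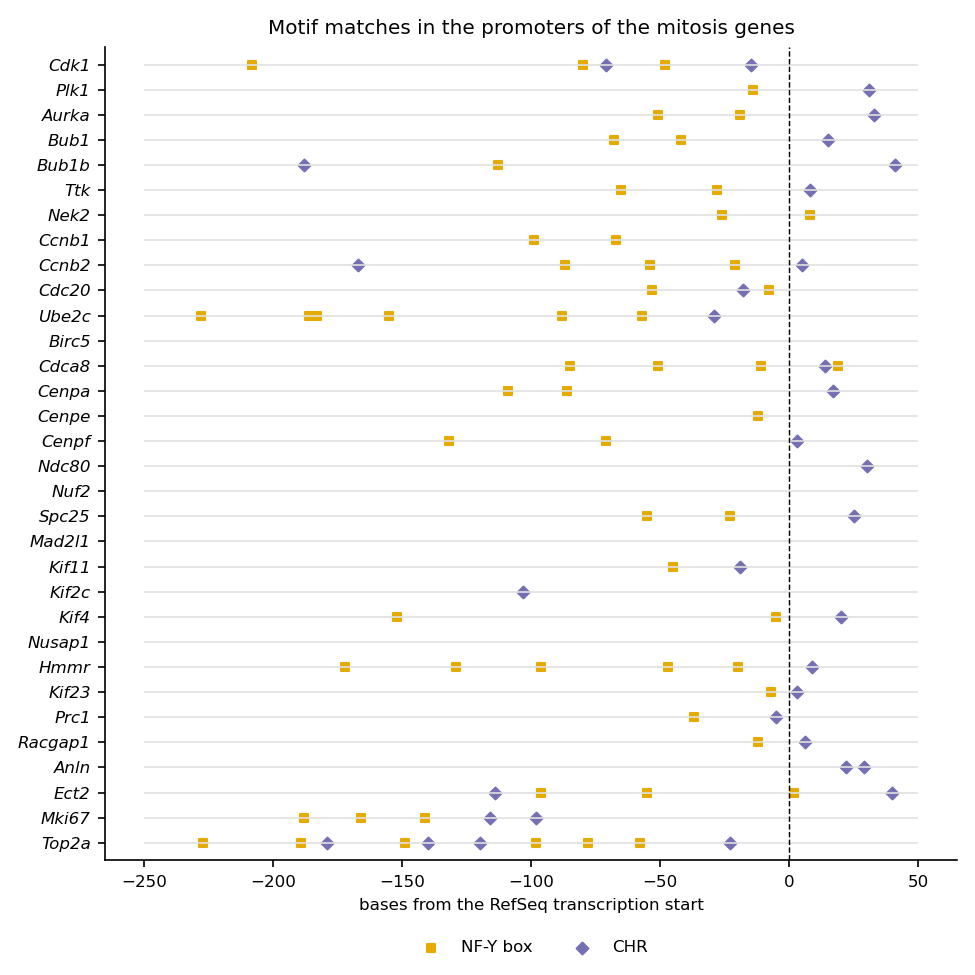
Position of each motif match in the promoters of the 32 members with one in RefSeq's table, in bases from the transcription start (dashed line). Squares are CCAAT boxes (NF-Y boxes) and diamonds are CHR elements, on either strand; 23 members have a CHR element within 50 bases of the start, and 4 members have no match.

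The 37 genes were abundant in every group. Their median was 45.9 FPKM ± 0.0250 (SD, n = 2) in coculture EpCAM+ and 46.0 FPKM ± 0.0644 (SD, n = 2) in monoculture EpCAM+. In EpCAM- cells it was 28.9 FPKM ± 0.611 (SD, n = 2) in coculture and 31.3 FPKM ± 1.12 (SD, n = 2) in monoculture. The sum over the 37 genes was highest in coculture EpCAM+ (1910 FPKM ± 8.37, SD, n = 2), followed by monoculture EpCAM+ (1771 ± 12.6), monoculture EpCAM- (1317 ± 5.19) and coculture EpCAM- (1162 ± 10.6). No 2 of these groups overlapped in that sum. Ube2c was the most abundant member in all 4 groups. Nusap1 was the least abundant in both EpCAM+ groups, and Cenpf, a large kinetochore protein, in both EpCAM- groups. The 2 libraries of a group lay close together for most members, with a median coefficient of variation of 1.45% in monoculture EpCAM+ and 1.85% in monoculture EpCAM-. Birc5 had the widest spread, 14.9% in monoculture EpCAM+.

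**Figure D2:**
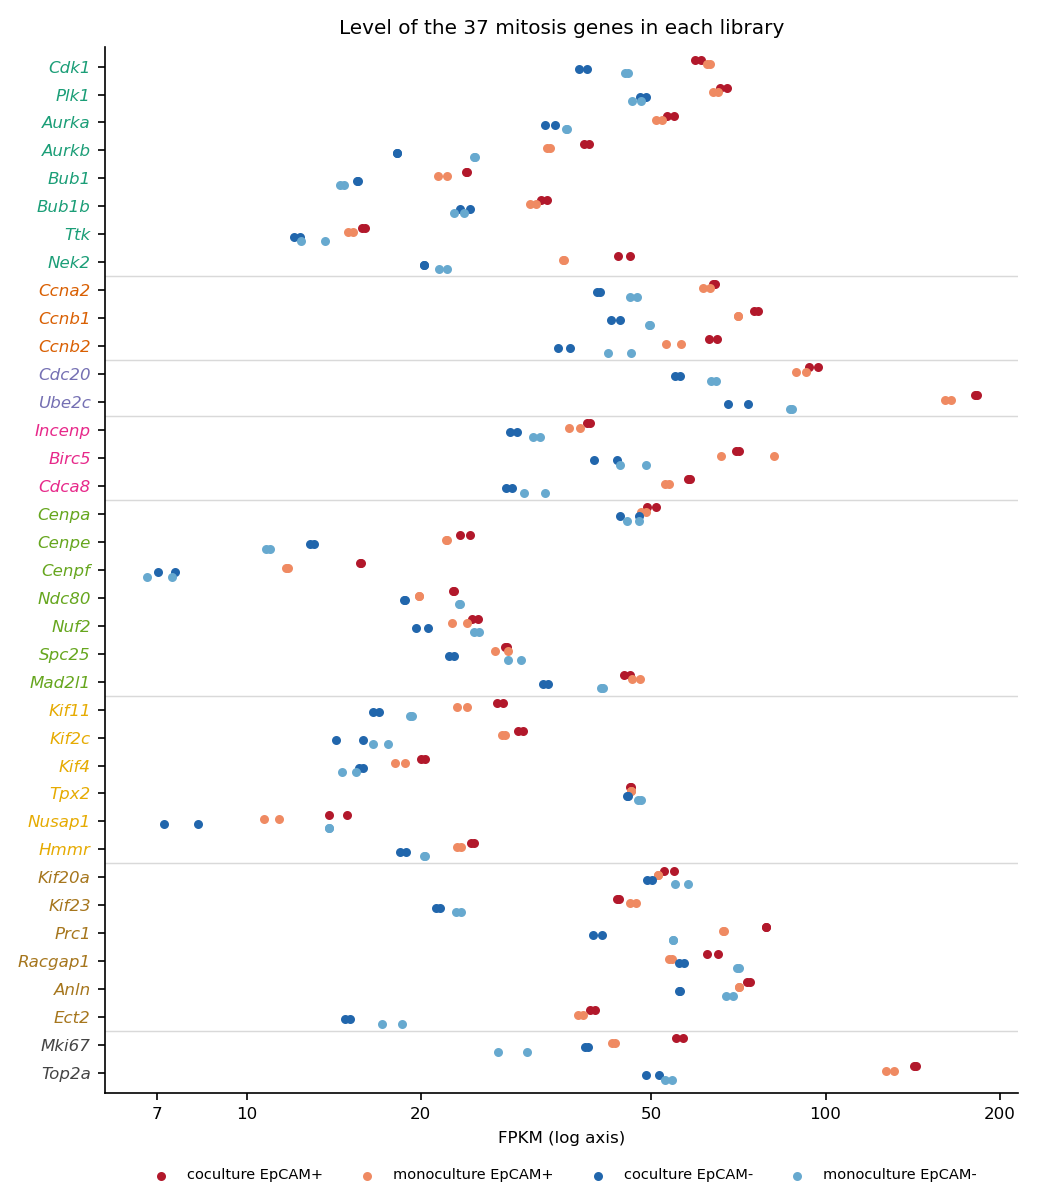
Level of the 37 genes in each of the 8 libraries, in FPKM on a log axis, with gene names coloured by role and a point for each library. Red and orange points (EpCAM+) lie to the right of the blue points (EpCAM-) for most genes, and the light blue points (monoculture EpCAM-) lie to the right of the orange ones for the 5 genes that were lower in EpCAM+ in monoculture, Ndc80, Nuf2, Nusap1, Kif20a and Racgap1.

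In coculture, with FPKM as deposited, EpCAM+ cells had more RNA of nearly every mitosis gene than EpCAM- cells. With limma and Benjamini-Hochberg adjustment over all 12012 genes, 36 of 37 members were higher in EpCAM+ at an adjusted p under 0.05, beside 59.2% of all genes tested, 0 were lower, beside 28% of all genes, and only Tpx2 did not pass. No member had a difference below 0 with FPKM as deposited. A difference of at least 2-fold was reached by 8 members, beside 16.5% of all genes: Top2a, Ect2, Ube2c, Nek2, Aurkb, Cenpf, Cdca8 and Kif23. The members' median log2 difference was 0.65, that of all genes tested was 0.26, and 33 members lay above the latter. In monoculture 29 members were higher in EpCAM+, beside 55.4% of all genes, and 5 were lower, beside 32.4%. The 5 lower ones were Racgap1, Nusap1, Ndc80, Kif20a and Nuf2, all of which were higher in EpCAM+ in coculture with FPKM as deposited. Only Top2a and Ect2 reached 2-fold in monoculture, beside 15.5% of all genes. The members' median there was 0.41, that of all genes 0.23, and 24 members lay above it. The 8 members past 2-fold in coculture are close to the share of all genes, and nothing particular to these genes is read from that count.

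How the libraries are scaled moved these counts. Dividing each library by its median ratio to the average library moved the median of all genes down by nearly its whole value, a shift of -0.26 in coculture and -0.21 in monoculture, and quantile normalization gave shifts of -0.25 and -0.14. The share of called genes that were higher in EpCAM+ was 67.9% as deposited, 50.2% with the median of ratios and 51.0% with quantiles in coculture, and 63.1%, 50.8% and 55.4% in monoculture. Of all 12012 genes, the median of ratios called 10043 in coculture and 10296 in monoculture, and quantiles called 9966 and 10332. Under all 3 scalings 28 members were called higher in EpCAM+ in coculture and 20 in monoculture, and the same 5 members were called lower in monoculture. Of these 5, only Nusap1 was also called higher in coculture under all 3 scalings. For single comparisons, here and below, the share of all genes called under all 3 scalings is not given. The shares as deposited do not stand in for it. The members' median in coculture was 0.37 with the median of ratios and 0.51 with quantiles, and in monoculture 0.17 and 0.24.

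**Figure D3:**
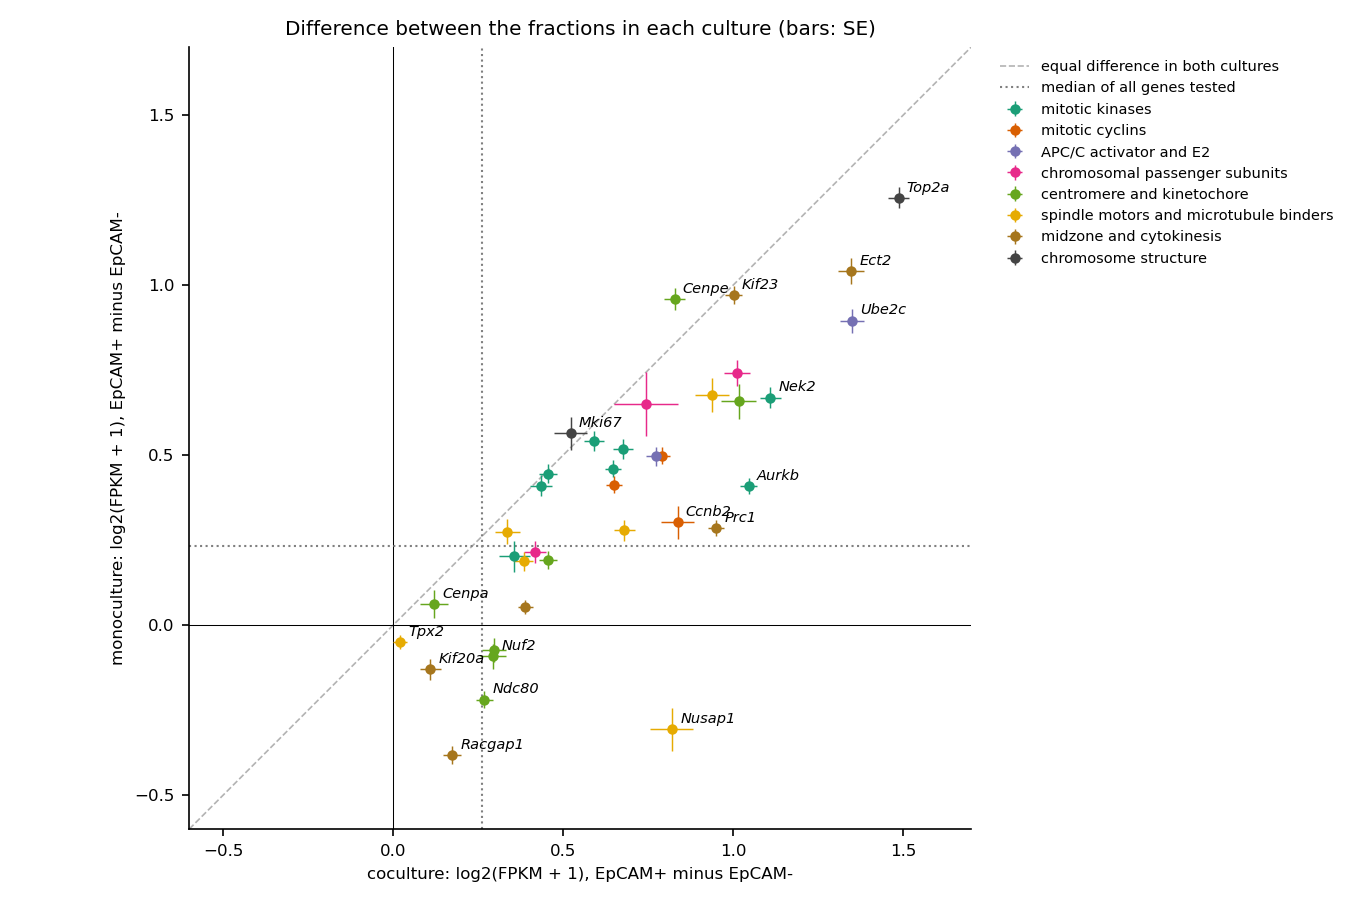
Difference between EpCAM+ and EpCAM- cells in log2(FPKM + 1), in coculture (horizontal axis) and in monoculture (vertical axis), for the 37 genes; points are differences of group means and bars are standard errors. Dotted lines are the medians of all genes tested (0.26 and 0.23) and the dashed line marks equal differences; most points lie below the dashed line, and 5 called genes lie below 0 in monoculture.

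Between the cultures, called members were mostly lower in monoculture in EpCAM+ cells and mostly higher in EpCAM- cells. In EpCAM+ cells 18 of 37 members were lower in monoculture than in coculture, beside 34.9% of all genes tested, 1 (Kif23) was higher, beside 16.4%, and the members' median log2 change was -0.09 against -0.06 for all genes. In EpCAM- cells 27 members were higher in monoculture, beside 32.4% of all genes, 3 (Mki67, Cenpe and Bub1) were lower, beside 30.3%, and the median change was 0.17 against 0.00 for all genes. Of the 37, 13 passed in both fractions as lower in EpCAM+ and higher in EpCAM-, beside 14.6% of all genes: Aurkb, Nek2, Ccnb1, Ccnb2, Ube2c, Cdca8, Ndc80, Kif11, Nusap1, Hmmr, Prc1, Racgap1 and Top2a. Both calls held under all 3 scalings for 9 of them, beside 8.41% of all genes, and not for Ccnb1, Cdca8, Hmmr and Top2a. Bub1, Cenpe and Mki67 were lower in monoculture in both fractions as deposited, beside 8.32% of all genes, and of these only Mki67 was called lower in both under all 3 scalings. Kif23 was higher in both, beside 4.37%, and remained so under all 3. No member changed by 2-fold between cultures in either fraction, where 1.94% of all genes did so in EpCAM+ cells and 4.52% in EpCAM- cells.

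The interaction, the change in EpCAM+ cells minus the change in EpCAM- cells, tests whether these changes differed. It was called for 27 of 37 members, beside 65.2% of all genes tested: it was below 0 for 26 of 37 members, beside 39.2% of all genes, above 0 for 1 (Cenpe), beside 26%, and not called for 10. The members' median was -0.26, that of all genes -0.08. The same 26 members and Cenpe were called in the same direction with the median of ratios and with quantiles, although quantiles moved the median of all genes by 0.11. In EpCAM+ cells alone the calls held less well: 11 of the 18 lower members were called lower under all 3 scalings. There the share of called genes that were higher was 32% as deposited, 46.3% with the median of ratios and 53.3% with quantiles. For the interaction it was 39.9%, 44.6% and 53.2%. In EpCAM- cells 24 of the 27 higher members were called higher under all 3.

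Calls of small changes could rest on single libraries. The interaction of Cenpe was called only with all libraries or without monoculture EpCAM- replicate 2 or coculture EpCAM+ replicate 2; without any other single library it was 0.10 to 0.14, with adjusted p of 0.0507 to 0.111. Of the 13 genes that changed in opposite directions, 8 kept both calls whichever library was left out: Aurkb, Ccnb2, Ube2c, Ndc80, Kif11, Nusap1, Prc1 and Racgap1. In EpCAM+ cells the fall of Hmmr was lost without any 1 of the 8 libraries (-0.09 to -0.07), that of Cdca8 without any 1 of the 4 EpCAM+ libraries (-0.14 to -0.11), and that of Ccnb1 without coculture EpCAM+ replicate 1 (-0.09). The fall of Kif4 (-0.14 to -0.10) and the rise of Kif23 (0.07 to 0.09) were lost without monoculture EpCAM+ replicate 1 or either library of coculture EpCAM+, and the fall of Cenpe (-0.11 to -0.07) without either library of monoculture EpCAM+ or coculture EpCAM+ replicate 2.

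In EpCAM- cells the call of Bub1 was lost without any 1 of 6 libraries, all but those of monoculture EpCAM+ (-0.09 to -0.07). That of Top2a was lost without monoculture EpCAM- replicate 2, coculture EpCAM- replicate 1 or either library of coculture EpCAM+ (0.05 to 0.09). The call of Nek2 was lost without monoculture EpCAM- replicate 2 or either library of coculture EpCAM- (0.08 to 0.10), that of Aurka without coculture EpCAM- replicate 1 or either library of monoculture EpCAM- (0.07 to 0.10), and that of Tpx2 without monoculture EpCAM- replicate 1 or either library of coculture EpCAM- (0.06 to 0.07). Kif2c lost its call without monoculture EpCAM- replicate 2 or coculture EpCAM- replicate 1 (0.09 to 0.13), and Incenp (0.11) and Cdca8 (0.13) without the latter. Between the fractions, Cenpa (0.07 to 0.09) and Kif20a (0.08 to 0.10) lost their calls in coculture without replicate 1 of either fraction. In monoculture Anln lost its call without any single library but monoculture EpCAM- replicate 2 (0.04 to 0.05), and Nuf2 without monoculture EpCAM+ replicate 1 or any 1 library of monoculture EpCAM- or coculture EpCAM+ (-0.11 to -0.05). Calls were gained for Spc25 in monoculture when EpCAM+ replicate 2 or EpCAM- replicate 1 of that culture was left out (-0.11), and for Tpx2 there without monoculture EpCAM- replicate 2 (-0.06). Between cultures they were gained for Cdc20 in EpCAM+ without monoculture EpCAM+ replicate 1 (-0.10), for Anln in EpCAM+ without either library of monoculture EpCAM- (-0.05) and for Ttk in EpCAM- without monoculture EpCAM- replicate 2 (0.15).

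**Figure D4:**
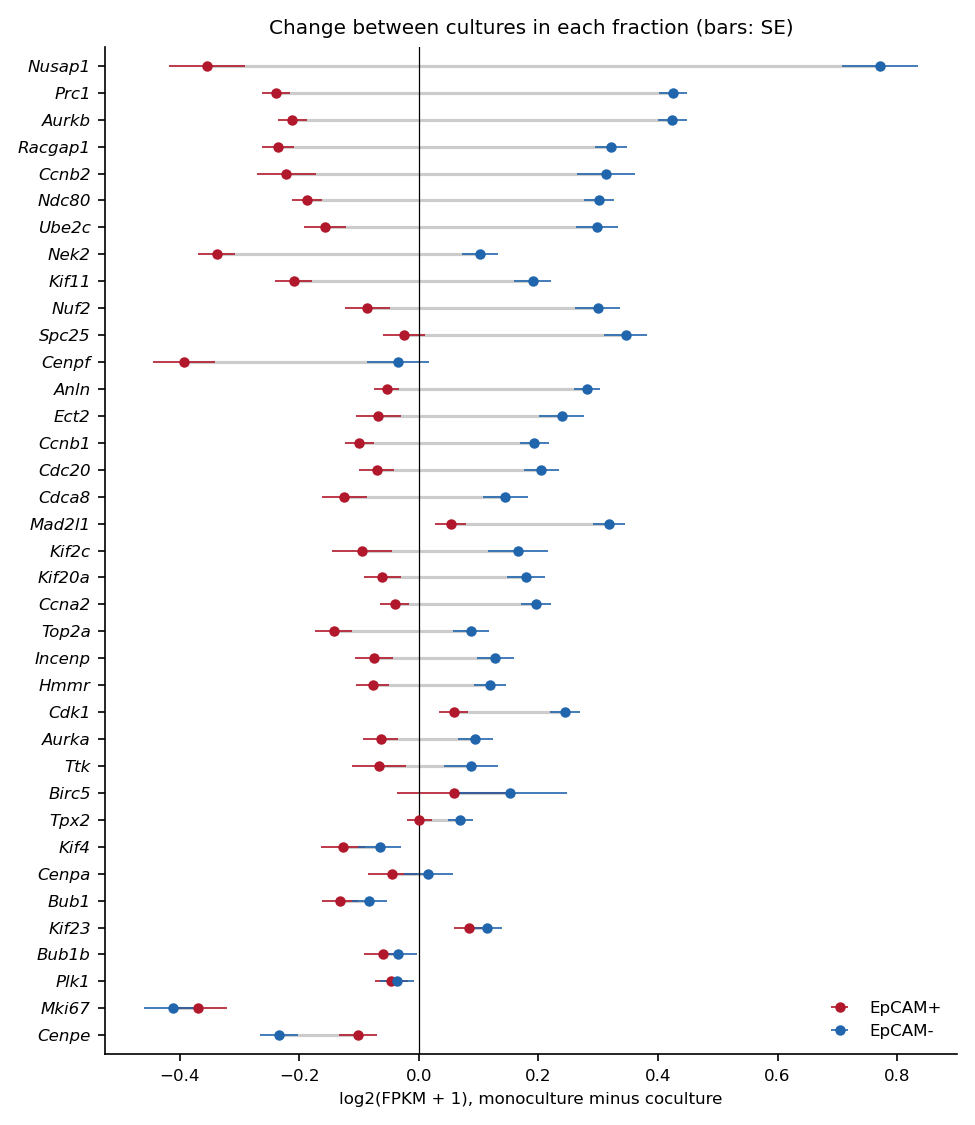
Change from coculture to monoculture in log2(FPKM + 1) for the 37 genes, red in EpCAM+ and blue in EpCAM- cells, with standard errors as bars, ordered by the gap between the fractions. From Nusap1 at the top down to Kif11 the red points lie below 0 and the blue points above it; Mki67 and Cenpe, at the bottom, lie below 0 in both fractions.

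The markers of each fraction were low in the other, and by an amount that differed between cultures. The summed mesenchymal markers of EpCAM+ cells were 1.72% of those of EpCAM- cells in coculture and 0.132% in monoculture. The summed epithelial markers of EpCAM- cells were 0.325% of those of EpCAM+ cells in coculture and 0.203% in monoculture. Whether this marker RNA came from cells of the other fraction or was made by the sorted cells was not tested. These percentages were then subtracted as shares of the other fraction, an alternative added after the data were seen. With this, 36 members were higher in EpCAM+ in coculture, and 29 were higher and 6 lower in monoculture. The interaction was below 0 for 26 and above 0 for 1. Of all 12012 genes, 10493 were called in coculture (67.8% higher), 10552 in monoculture (63.1% higher) and 7835 for the interaction (40.3% above 0). The shares subtracted were at most 1.72%, and the median of all genes moved by 0.005 in coculture and 0.0008 in monoculture. So small a subtraction could move the members' differences little, and nothing particular to the members is read from these counts.

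The mitotic kinases phosphorylate the proteins that start and order mitosis. With FPKM as deposited all 8 were higher in EpCAM+ cells in coculture, beside 59.2% of all genes, and in monoculture, beside 55.4%, and 7 of the 8 were called under all 3 scalings in each culture. The exception was Ttk, with 0.09 in coculture with the median of ratios (adjusted p = 0.0928) and with quantiles (adjusted p = 0.0823), and with -0.03 in monoculture with the median of ratios. Cdk1, which encodes the kinase that drives entry into mitosis, was at 59.6 and 60.8 FPKM in coculture EpCAM+, 37.5 and 38.7 in coculture EpCAM-, 62.4 and 63.1 in monoculture EpCAM+ and 45 and 45.7 in monoculture EpCAM-. The fractions did not overlap in either culture. The log2 difference was 0.65 (SE 0.03, limma adjusted p = 5.7e-08) in coculture and 0.46 in monoculture, with an interaction of -0.19 (adjusted p = 0.0021). Cdk1 rose in EpCAM- cells in monoculture, by 0.24, and its change of 0.06 in EpCAM+ cells was not called as deposited (0.11 with the median of ratios, adjusted p = 0.00698).

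Aurkb, the kinase of the chromosomal passenger complex, had the interaction furthest from 0 among the kinases. It was at 38.3 and 39.0 FPKM in coculture EpCAM+ and at 18.2 and 18.2 in coculture EpCAM-, more than a 2-fold difference as deposited. In monoculture it was at 33.1 and 33.4 FPKM in EpCAM+ and 24.7 and 24.9 in EpCAM-. The gap narrowed from both sides: Aurkb fell by 0.21 in EpCAM+ and rose by 0.42 in EpCAM- cells on the log2 scale, an interaction of -0.64 (SE 0.04, adjusted p = 2.9e-06). Nek2, which helps split the centrosomes, was at 43.8 and 46.0 FPKM in coculture EpCAM+ and 35.2 and 35.3 in monoculture EpCAM+. In EpCAM- cells it was at 20.3 and 20.3 FPKM in coculture and 21.5 and 22.2 in monoculture. Its narrowing came mostly from EpCAM+ cells, where it fell by 0.34, against a rise of 0.10 in EpCAM- cells.

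Aurka, which acts at the centrosome, was at 50.9 to 54.7 FPKM in the 4 EpCAM+ libraries and 32.8 to 35.8 FPKM in the 4 EpCAM- libraries. Its interaction was -0.16 (adjusted p = 0.0098). For Plk1, Bub1, Bub1b and Ttk the interaction was not called, with values from -0.15 to -0.01, and without monoculture EpCAM- replicate 2 that of Ttk was -0.22 (adjusted p = 0.00892). PLK1 acts from entry into mitosis to cytokinesis, and its difference between the fractions was 0.46 in coculture and 0.45 in monoculture. Bub1, Bub1b and Ttk encode spindle checkpoint kinases or, for Bub1b, a kinase-like checkpoint protein. Their differences in coculture were 0.59, 0.44 and 0.36, in that order. Bub1 was lower in monoculture in both fractions as deposited, with changes of -0.13 in EpCAM+ and -0.08 in EpCAM- cells. With the median of ratios these were -0.08 (adjusted p = 0.0632) and -0.07 (adjusted p = 0.083), and neither was called.

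The mitotic cyclins, which bind and activate CDK1, were higher in EpCAM+ cells in 3 of 3 cases as deposited, in coculture (beside 59.2% of all genes) and in monoculture (beside 55.4%). Under all 3 scalings it was 3 in coculture and 2 in monoculture, where Ccnb2 lost its call. Ccnb1 was at 75.2 and 76.4 FPKM in coculture EpCAM+ and 42.6 and 44.1 in coculture EpCAM-. In monoculture it was at 70.6 and 70.6 FPKM in EpCAM+ and 49.6 and 49.8 in EpCAM-. Its difference went from 0.79 in coculture to 0.50 in monoculture, and its fall of 0.10 in EpCAM+ cells was -0.04 with the median of ratios (adjusted p = 0.166). Ccnb2 was at 62.8 and 65.0 FPKM in coculture EpCAM+, 34.6 and 36.1 in coculture EpCAM-, 53.1 and 56.3 in monoculture EpCAM+ and 42.2 and 46.2 in monoculture EpCAM-. The fractions did not overlap in monoculture as deposited, and the difference was 0.30 there against 0.84 in coculture, an interaction of -0.53 (SE 0.07, adjusted p = 0.00029). With the median of ratios the difference in monoculture was 0.06 (adjusted p = 0.273). Ccna2, the A-type cyclin of S phase and G2, rose by 0.20 in EpCAM- cells in monoculture, and its change of -0.04 in EpCAM+ cells was not called.

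Cdc20 and Ube2c encode an activator and the ubiquitin-loading E2 enzyme of the anaphase-promoting complex (APC/C), the ubiquitin ligase that ends mitosis by marking cyclin B and securin for destruction. Ube2c was at 181 and 183 FPKM in coculture EpCAM+ and 67.9 and 73.5 in coculture EpCAM-. In monoculture it was at 161 and 165 FPKM in EpCAM+ and 86.7 and 87.5 in EpCAM-. It thus fell in EpCAM+ and rose in EpCAM- cells and still differed by 0.90 between the fractions in monoculture, against 1.35 in coculture. Cdc20 was at 88.9 to 97.0 FPKM in EpCAM+ libraries and 54.9 to 64.7 FPKM in EpCAM- libraries, and its difference went from 0.77 to 0.50. Another 16 genes of the APC/C, none of them members, were its subunits together with the activator Fzr1 and the E2 enzyme Ube2s. Of these 16, 9 were higher (beside 59.2% of all genes) and 4 lower (beside 28%) in EpCAM+ in coculture. Their median was 0.14, below that of all genes. In monoculture 8 were higher (beside 55.4%) and 6 lower (beside 32.4%). With the median of ratios the counts were 5 higher and 9 lower in coculture and 5 and 10 in monoculture.

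Incenp, Birc5 and Cdca8 encode the scaffold and the other subunits that place Aurora B on chromosomes. With FPKM as deposited all 3 were higher in EpCAM+ in coculture (beside 59.2% of all genes) and in monoculture (beside 55.4%). The median of ratios turned the difference of Incenp in monoculture to -0.03. Cdca8 was at 58.0 and 58.4 FPKM in coculture EpCAM+, 28.0 and 28.7 in coculture EpCAM-, 52.9 and 53.7 in monoculture EpCAM+ and 30.2 and 32.8 in monoculture EpCAM-. Its difference went from 1.01 to 0.74, and its fall of 0.13 in EpCAM+ cells was -0.07 with the median of ratios (adjusted p = 0.143). Birc5, which encodes survivin, was at 66.1 and 81.6 FPKM in monoculture EpCAM+, a gap that no other member had between libraries of a group, and at 70.1 and 70.9 in coculture EpCAM+. In EpCAM- cells it was at 39.8 and 43.7 FPKM in coculture and 44.1 and 48.9 in monoculture. No change between cultures was called for Birc5, whose standard error of 0.09 in both fractions was the largest among the members.

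The kinetochore genes split. The Ndc80 complex is the rod that grips the ends of spindle microtubules, and 3 of its 4 subunits are members: Ndc80, Nuf2 and Spc25. Ndc80 was at 22.7 and 22.8 FPKM in coculture EpCAM+, 18.7 and 18.8 in coculture EpCAM-, 19.9 and 19.9 in monoculture EpCAM+ and 23.3 and 23.3 in monoculture EpCAM-. The fractions did not overlap in either culture, and their order was the opposite in monoculture. The log2 difference was 0.27 in coculture as deposited and -0.01 with the median of ratios, and -0.22 in monoculture (SE 0.03, adjusted p = 5.4e-05). The interaction was -0.49 (SE 0.04, adjusted p = 1.3e-05).

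Nuf2 and Spc25 gave like values. Nuf2 was at 24.6 and 25.1 FPKM in coculture EpCAM+, 19.6 and 20.6 in coculture EpCAM-, 22.7 and 24.0 in monoculture EpCAM+ and 24.7 and 25.2 in monoculture EpCAM-. Spc25 was at 27.9 and 28.1 FPKM in coculture EpCAM+, 22.4 and 22.8 in coculture EpCAM-, 26.8 and 28.2 in monoculture EpCAM+ and 28.3 and 29.8 in monoculture EpCAM-. Both rose in EpCAM- cells, by 0.30 and 0.35, while neither was called in EpCAM+ cells. The interactions were -0.39 and -0.37. Their differences in coculture, 0.29 and 0.30 as deposited, were both 0.02 with the median of ratios (adjusted p = 0.675 and 0.642) and 0.08 and 0.09 with quantiles (adjusted p = 0.0692 and 0.0548). In monoculture Spc25 was not called as deposited (-0.07), but was lower in EpCAM+ with the median of ratios (-0.31) and with quantiles (-0.23). Spc24, the other subunit, is no member and was looked at after its values were seen: its difference was 0.69 in coculture and 0.42 in monoculture, and it was called in neither fraction between cultures.

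The large kinetochore proteins CENP-E, a motor, and CENP-F showed other patterns. Cenpe was at 23.3 and 24.3 FPKM in coculture EpCAM+, 12.9 and 13.1 in coculture EpCAM-, 22.1 and 22.2 in monoculture EpCAM+ and 10.8 and 11 in monoculture EpCAM-. It fell by 0.23 in EpCAM- cells and by 0.10 in EpCAM+ cells, where the median of ratios gave -0.05 (adjusted p = 0.268) and quantiles -0.05 (adjusted p = 0.207). It was the only member whose interaction was called above 0 (0.13, adjusted p = 0.033). Cenpf was at 15.7 and 15.8 FPKM in coculture EpCAM+ and 11.7 and 11.8 in monoculture EpCAM+, and at 6.73 to 7.53 in the 4 EpCAM- libraries. It fell by 0.39 in EpCAM+ cells, more than any other member, and no change was called in EpCAM- cells (-0.03). Mad2l1, a checkpoint protein that holds Cdc20, rose by 0.32 in EpCAM- cells, and its difference between the fractions was 0.46 in coculture and 0.19 in monoculture, where the median of ratios gave -0.05. Cenpa, the histone H3 variant of centromeres, was nearly level at 44.2 to 51.0 FPKM over all 8 libraries. Its difference in coculture was 0.12 as deposited (adjusted p = 0.024), -0.16 with the median of ratios and -0.01 with quantiles.

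Among the spindle proteins, 5 of 6 were higher in EpCAM+ in coculture (beside 59.2% of all genes) and 4 of 6 in monoculture (beside 55.4%) with FPKM as deposited, and 1, Nusap1, was lower there. Under all 3 scalings 4 were higher in coculture, only Kif2c was higher in monoculture, and Nusap1 was lower there. Nusap1 encodes a protein that bundles spindle microtubules near chromosomes. It was at 13.9 and 14.9 FPKM in coculture EpCAM+, 7.21 and 8.26 in coculture EpCAM-, 10.7 and 11.4 in monoculture EpCAM+ and 13.9 and 13.9 in monoculture EpCAM-. The fractions changed places between the cultures without overlap in either. The difference was 0.82 (SE 0.06, adjusted p = 4.7e-06) in coculture and -0.31 (SE 0.06, adjusted p = 0.0020) in monoculture, and the interaction of -1.13 (SE 0.09, adjusted p = 2.1e-05) was the furthest from 0 of the 37. It was the only member past 2-fold in the interaction, beside 5.66% of all genes.

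The exons of Nusap1 (chr2:119618298-119651244, plus strand, GENCODE M21) overlap those of Oip5 on the opposite strand. Oip5 was at 5.80 and 6.07 FPKM in coculture EpCAM+, 4.26 and 4.50 in coculture EpCAM-, 4.75 and 5.03 in monoculture EpCAM+ and 6.34 and 6.55 in monoculture EpCAM-, the same order of groups except that monoculture EpCAM- stood above coculture EpCAM+. Whether the counting used strand is not stated, so reads of the pair cannot be told apart. The same holds for 9 other members with exons overlapping a gene on the opposite strand: Plk1, Nek2, Ccna2, Cdc20, Ube2c, Cdca8, Kif4, Kif20a and Prc1. The levels of their partners differed widely. The lowest was Tnnc2, partner of Ube2c, at 0.258 to 0.633 FPKM, and the highest Elovl1, partner of Cdc20, at 30.9 to 53.1 FPKM. The partners of Plk1 and Nek2 were not among the deposited gene names. Top2a overlaps a gene on the same strand.

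Kif11, the motor that pushes spindle poles apart, was at 27.1 and 27.7 FPKM in coculture EpCAM+, 16.5 and 16.9 in coculture EpCAM-, 23.1 and 24.0 in monoculture EpCAM+ and 19.2 and 19.3 in monoculture EpCAM-. It fell by 0.21 in EpCAM+ and rose by 0.19 in EpCAM- cells, and the fractions did not overlap in either culture as deposited. Its difference in monoculture, 0.28 as deposited, was 0.04 with the median of ratios (adjusted p = 0.256). Kif2c, which takes apart microtubules at kinetochores, differed by 0.94 in coculture and 0.68 in monoculture. Hmmr, a spindle pole protein, differed by 0.38 in coculture and 0.19 in monoculture, where the median of ratios gave -0.05. Kif4, a motor of chromosome arms, differed by 0.34 in coculture and 0.27 in monoculture as deposited, and its interaction was not called. With the median of ratios neither difference was called (0.06 with adjusted p = 0.159, and 0.04 with adjusted p = 0.358). Tpx2, which activates Aurora A on the spindle, was the flattest member: all 8 libraries lay between 45.4 and 48.1 FPKM. Its difference in coculture, 0.02 as deposited (adjusted p = 0.41), was -0.26 with the median of ratios and -0.11 with quantiles.

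With FPKM as deposited, genes of the midzone and cytokinesis included members that differed between the fractions by over 2-fold and members that changed order. Ect2, the exchange factor that switches on RhoA at the cleavage furrow, was at 39.22 and 40.03 FPKM in coculture EpCAM+, 14.8 and 15.1 in coculture EpCAM-, 37.4 and 38.1 in monoculture EpCAM+ and 17.2 and 18.6 in monoculture EpCAM-. Its difference was 1.35 in coculture and 1.04 in monoculture. Racgap1, which binds ECT2 at the midzone, was at 62.3 and 65.2 FPKM in coculture EpCAM+, 55.8 and 56.9 in coculture EpCAM-, 53.7 and 54.2 in monoculture EpCAM+ and 70.4 and 71.0 in monoculture EpCAM-. Monoculture EpCAM- was thus its highest group and monoculture EpCAM+ its lowest. Racgap1 differed by 0.17 in coculture as deposited, by -0.11 with the median of ratios, and by -0.38 in monoculture (SE 0.03, adjusted p = 2.2e-06).

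Kif23 encodes the motor that forms the centralspindlin complex with RACGAP1. It was at 43.6 and 44.0 FPKM in coculture EpCAM+, 21.2 and 21.6 in coculture EpCAM-, 46.0 and 47.1 in monoculture EpCAM+ and 23.0 and 23.5 in monoculture EpCAM-. The difference was 1.00 in coculture and 0.97 in monoculture, with no called interaction (-0.03, adjusted p = 0.50). The 2 partners of this complex therefore stood apart: Racgap1 had an interaction of -0.56 (SE 0.04, adjusted p = 8.9e-06).

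Prc1, which bundles midzone microtubules, was at 78.8 and 78.9 FPKM in coculture EpCAM+, 39.7 and 41.1 in coculture EpCAM-, 66.5 and 66.9 in monoculture EpCAM+ and 54.5 and 54.6 in monoculture EpCAM-. It fell by 0.24 in EpCAM+ and rose by 0.43 in EpCAM- cells. Its difference in monoculture, 0.29 as deposited, was 0.04 with the median of ratios (adjusted p = 0.131). Its interaction of -0.66 was the second furthest from 0, after that of Nusap1. Kif20a, a midzone motor, was at 49.2 and 50.1 FPKM in coculture EpCAM- and 54.9 and 57.8 in monoculture EpCAM-, with all 4 EpCAM+ libraries between 51.4 and 54.7. Its difference was 0.11 in coculture as deposited, -0.17 with the median of ratios and -0.03 with quantiles, and -0.13 in monoculture. Anln, the furrow scaffold anillin, rose by 0.28 in EpCAM- cells, from 55.8 and 56.1 FPKM to 67.4 and 69.2. Its difference went from 0.39 to 0.05 as deposited, where the median of ratios gave -0.19 and quantiles -0.06.

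Top2a and Mki67, the most used markers of dividing cells, act on chromosome structure. Top2a, the topoisomerase that untangles sister chromatids, was at 142 and 144 FPKM in coculture EpCAM+, 49.1 and 51.7 in coculture EpCAM-, 127 and 132 in monoculture EpCAM+ and 52.8 and 54.2 in monoculture EpCAM-. Its differences of 1.49 (SE 0.03, adjusted p = 1.3e-09) and 1.26 were the highest of the 37 in either culture. Mki67, whose product Ki-67 coats mitotic chromosomes, was at 55.2 and 56.6 FPKM in coculture EpCAM+ and 42.8 and 43.3 in monoculture EpCAM+. In EpCAM- cells it was at 38.4 and 38.9 FPKM in coculture and 27.2 and 30.5 in monoculture. It fell by 0.37 in EpCAM+ and by 0.41 in EpCAM- cells, and the interaction was not called (0.04, adjusted p = 0.61), though without monoculture EpCAM- replicate 2 it was 0.12 (adjusted p = 0.0247). Top2a was called as lower in EpCAM+ (-0.14) and higher in EpCAM- cells (0.09) as deposited. The former was -0.09 with the median of ratios (adjusted p = 0.0527), and the latter 0.04 with quantiles (adjusted p = 0.355).

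The other mitosis genes on a textbook list, 79 in all, were all tested. In coculture 74 were higher (beside 59.2% of all genes) and 2 lower (beside 28%) in EpCAM+, with a median of 0.62. In monoculture 58 were higher (beside 55.4%) and 7 lower (beside 32.4%), with a median of 0.35. Under all 3 scalings 56 were higher and 2 lower in coculture, and 40 and 7 in monoculture. Psrc1, a spindle protein, was highest, by 3.04 in coculture and 3.37 in monoculture, followed in coculture by Iqgap3, a scaffold of the dividing cell cortex, by 1.84. Zwint and Cenpm, kinetochore proteins, were the 2 that were lower in coculture, with differences of -0.45 and -0.33. In monoculture EpCAM+ against coculture EpCAM+ 4 were higher (beside 16.4% of all genes) and 42 lower (beside 34.9%), and in EpCAM- cells 39 were higher (beside 32.4%) and 10 lower (beside 30.3%). The interaction was below 0 for 53 (beside 39.2%) and above 0 for 4 (beside 26%), with a median of -0.26, and it was below 0 for 36 under all 3 scalings.

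Of 22 regulators of G2/M transcription tested, 18 were higher (beside 59.2% of all genes) and 2 lower (beside 28%) in EpCAM+ in coculture, and 10 and 2 were so under all 3 scalings. For the interaction 8 were above 0 (beside 26%) and 7 below 0 (beside 39.2%), with a median of 0.00. Foxm1 was at 35.1 and 35.2 FPKM in coculture EpCAM+, 31.4 and 32.3 in coculture EpCAM-, 38.2 and 39.3 in monoculture EpCAM+ and 31.1 and 32.4 in monoculture EpCAM-. Its difference was 0.14 in coculture as deposited, -0.14 with the median of ratios and -0.06 with quantiles, and 0.28 in monoculture. Mybl2, which encodes B-MYB, rose by 0.17 in EpCAM+ and fell by 0.51 in EpCAM- cells, an interaction of 0.68, opposite in sign to that of 26 members. E2f8, a repressor of E2F targets, was at 33.8 and 34.1 FPKM in coculture EpCAM+ and 7.87 and 8.25 in coculture EpCAM-, a difference of 1.95. E2f2, an activator, was at 4.00 and 4.16 FPKM in coculture EpCAM+ and 0.305 and 0.311 in coculture EpCAM-. Other E2F genes went the other way: the 2 regulators lower in coculture were E2f1 (-0.41) and E2f7 (-0.28). Both were also lower in EpCAM+ in monoculture (-0.58 and -0.30).

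Of 29 genes of G1/S and DNA replication, 23 were higher and 4 lower in EpCAM+ in coculture (beside 59.2% and 28% of all genes), and likewise 23 and 4 in monoculture (beside 55.4% and 32.4%). Under all 3 scalings 11 were higher and 4 lower in coculture, and 15 and 4 in monoculture. In EpCAM- cells 6 were higher (beside 32.4%) and 15 lower (beside 30.3%) in monoculture than in coculture, with a median of -0.11, where the mitosis genes had a median of 0.17. Tk1, thymidine kinase, was among the 6, with a rise of 0.28 and an interaction of -0.40. The interaction over the 29 was above 0 for 11 (beside 26%) and below 0 for 6 (beside 39.2%), with a median of 0.02. Of 10 D-type cyclins and CDK inhibitors, 6 were higher and 4 lower in EpCAM+ in coculture (beside 59.2% and 28% of all genes) and 4 higher and 6 lower in monoculture (beside 55.4% and 32.4%). Ccnd1, cyclin D1, was at 971 and 977 FPKM in coculture EpCAM+, 251 and 251 in coculture EpCAM-, 784 and 789 in monoculture EpCAM+ and 213 and 217 in monoculture EpCAM-. Ccnd2 went the other way, at 2.37 and 2.57 FPKM in coculture EpCAM+ and 108 and 108 in coculture EpCAM-. Its differences were -4.98 in coculture and -5.94 in monoculture. Ccnd3 was also lower in EpCAM+ in coculture (-0.88).

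The members' differences also varied with their chromosome, and chromosomes 3, 4 and 11 were singled out after values were seen. In coculture the 10 members on these chromosomes had a median difference of 0.88 (range 0.38 to 1.49), and the 27 on the others had 0.46 (range 0.02 to 1.35). All genes tested showed the same order, with a median of 0.52 over 2258 genes on chromosomes 3, 4 and 11 and 0.20 over 9303 genes elsewhere. In monoculture the members' medians were 0.66 (range 0.19 to 1.26) and 0.28 (range -0.38 to 0.97), and those of all genes were 0.50 and 0.18. The 5 members that were lower in EpCAM+ in monoculture, Racgap1, Nusap1, Ndc80, Kif20a and Nuf2, all lie on other chromosomes. The part of the chromosome in the members' values was not tested.

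**Figure D5:**
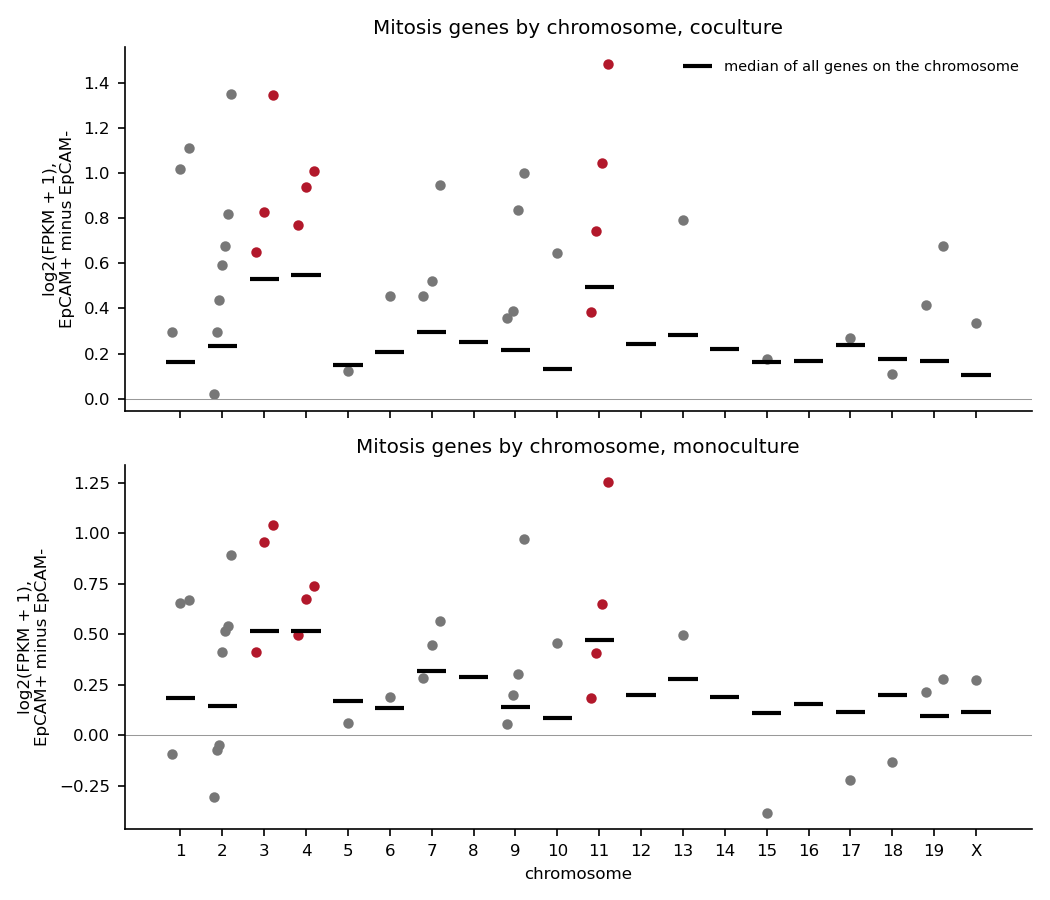
Difference between EpCAM+ and EpCAM- cells in log2(FPKM + 1) for the 37 genes by chromosome, in coculture (top) and monoculture (bottom); each point is a gene, and black bars are the median of all tested genes on that chromosome. Points on chromosomes 3, 4 and 11 are red, and the bars of these 3 chromosomes are the highest.

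Members with both promoter elements and those with 1 or neither had overlapping ranges in every comparison. The medians were 0.66 for 22 members and 0.77 for 10 in coculture, 0.45 and 0.35 in monoculture, and -0.21 and -0.31 for the interaction. Among the 4 members with neither element, Nusap1 had the lowest interaction of all, Nuf2 and Mad2l1 had -0.39 and -0.26, and that of Birc5 (-0.09) was not called.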

How the data were processed

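RNA of 8 libraries, 2 in each of 4 groups named by the sample titles, was read as pairs on a HiSeq instrument, per the labels' protocols. The authors deposited a table of FPKM per gene for each library. FastQC, cutadapt, HISAT2, SAMtools, HTSeq, edgeR and the build mm10 are named in the submitters' processing notes, without versions or order. For the program that wrote the FPKM, its annotation and its strand setting, the answer is not given in the sources used here. Read depth is therefore unknown, and no counting interval is given. FPKM sums were 387489 to 414612, and each library had 10634 to 11119 genes that reached 1 FPKM.

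Genes reaching 1 FPKM in 2 or more of the 8 libraries (12012) entered the tests. The scale was log2(FPKM + 1), which understates changes of low genes. Means of the 4 groups were fitted on the 8 libraries, leaving 4 residual degrees of freedom (limma 3.58.1 with eBayes and its trend option, R 4.3.3). Adjusted p-values are Benjamini-Hochberg values over all genes in the test, from two-sided p-values, and a call is an adjusted p under 0.05. Spread was shared over groups because 2 libraries against 2 alone leave 2 residual degrees of freedom. An exact permutation test of 2 against 2 has a smallest p of 0.333. The fit was tested on simulated data. Comparisons were EpCAM+ minus EpCAM- in each culture, monoculture minus coculture in each fraction, and the interaction.

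The members and the other lists were chosen with earlier results of these data known. All 37 members could be named. From each other list the rule allowed, in each comparison, the 3 highest and 3 lowest called genes whose higher group averaged 1 FPKM or more, together with Foxm1 and Mybl2, and a subset of these is described. Positions and exon overlaps are from GENCODE M21 and promoters from RefSeq (GRCm38.p6). Python 3.11.15 with pandas 2.3.3, NumPy 2.4.6 and matplotlib 3.10.9 made the other tables and the figures. The alternatives tried were a pseudocount of 0.1 or 0.5, a filter of 5 FPKM or none, median-of-ratios or quantile scaling, eBayes with no trend, a replicate block, a fit of the compared libraries alone, and leaving out each library in turn. Subtraction of the other fraction's share was added after the data were seen.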

Additional observations from a re-analysis of the deposited data

Results flagged for a closer look

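The change between cultures differed between EpCAM+ and EpCAM- cells, by the interaction test in limma at an adjusted p under 0.05, for 27 of 37 members, beside 65.2% of all genes tested. The interaction is the log2 change from coculture to monoculture in EpCAM+ minus that in EpCAM- cells. It was positive for 1 gene, Cenpe (0.13), and negative for 26. The 7 lowest were Nusap1 -1.13, Prc1 -0.66, Aurkb -0.64, Racgap1 -0.56, Ccnb2 -0.53, Ndc80 -0.49, Ube2c -0.45. Then followed Nek2 -0.44, Kif11 -0.40, Nuf2 -0.39, Spc25 -0.37, Cenpf -0.36, Anln -0.34, Ect2 -0.31. A value nearer 0 was found for Ccnb1 -0.29, Cdc20 -0.28, Cdca8 -0.27, Mad2l1 -0.26, Kif2c -0.26, Kif20a -0.24. The remaining 6 were Ccna2 -0.24, Top2a -0.23, Incenp -0.20, Hmmr -0.20, Cdk1 -0.19, Aurka -0.16. The groups of 2 libraries are too small for a test of single outlying libraries.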

How the results depend on the processing

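Scaling moved the counts of calls. Unless a number for all genes is given, counts in this section are of members alone. Nothing particular to the members is read from them. In coculture the median of ratios left 28 members higher, 4 lower and 3 past 2-fold (median 0.37), and quantiles 29, 1 and 3 (0.51). In monoculture the median of ratios gave 20 higher, 9 lower and 1 past 2-fold (0.17), and quantiles 1 past 2-fold (0.24). In EpCAM+ cells the median of ratios gave 3 higher and 11 lower in monoculture (median -0.031), and eBayes without trend 0 higher. For the interaction the medians were -0.22 with the median of ratios and with quantiles, and with quantiles 0 members were past 2-fold. A pseudocount of 0.1 gave 3 past 2-fold in monoculture.
With the median of ratios the sign turned for the difference in coculture of Cenpa (-0.16), Ndc80 (-0.0075), Tpx2 (-0.26), Kif20a (-0.17), Racgap1 (-0.11) and Foxm1 (-0.14). It turned for the difference in monoculture of Ttk (-0.031), Incenp (-0.027), Cenpa (-0.18), Mad2l1 (-0.052), Hmmr (-0.051), Anln (-0.19) and Zwint (-0.15). It also turned for the change in EpCAM+ cells of Plk1 (0.010), Ccna2 (0.016), Cenpa (0.012), Spc25 (0.030) and Anln (0.0026), for that in EpCAM- cells of Foxm1 (0.013), and for the interaction of Plk1 (0.029), Bub1b (0.013) and Kif23 (0.0085). With quantiles it turned in coculture for Cenpa (-0.011), Tpx2 (-0.11), Kif20a (-0.033) and Foxm1 (-0.057), and in monoculture for Cenpa (-0.036), Anln (-0.056) and Zwint (-0.023). It turned between cultures for Ttk (0.027) and Spc25 (0.0095) in EpCAM+, Cenpa (-0.018) in EpCAM-, and for the interaction of Plk1 (0.011), Bub1b (0.011) and Kif4 (0.0049). With the other fraction's share subtracted it turned for Tpx2 in EpCAM+ (-0.00019). Apart from the shift that each scaling gives all genes, the cause was not tested.

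With each library left out in turn, 34 to 36 members were higher and 6 to 8 past 2-fold in coculture. In monoculture 28 to 29 were higher, 4 to 6 lower and 1 to 2 past 2-fold. In EpCAM+ cells 0 to 1 were higher and 14 to 18 lower, and in EpCAM- cells 20 to 27 were higher and 2 to 3 lower. The interaction was above 0 for 0 to 2 and below 0 for 26 to 27, with medians of -0.27 to -0.22. The 2-fold count in monoculture was 1 without monoculture EpCAM- replicate 1. Values near 0 changed sign: the interaction of Birc5 (-0.24 to 0.056), Bub1b (-0.053 to 0.0017), Mki67 (-0.039 to 0.12) and Plk1 (-0.033 to 0.014), the change in EpCAM+ cells of Birc5 (-0.092 to 0.21), Spc25 (-0.061 to 0.011) and Tpx2 (-0.0023 to 0.0028), and that in EpCAM- cells of Cenpa (-0.037 to 0.069), Cenpf (-0.099 to 0.029), E2f2 (-0.026 to 0.0090) and Foxm1 (-0.032 to 0.023).

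Libraries with the same replicate number did not deviate together (correlations from -0.07 to 0.04 between groups). Whether they came from the same culture or sort cannot be told from these values. With a replicate block the counts were 36 higher and 0 lower in coculture, 28 and 4 in monoculture, 1 and 17 in EpCAM+ cells, 27 and 3 in EpCAM- cells, and 1 and 26 for the interaction, and the medians of members were 0.65, 0.41, -0.09, 0.17 and -0.26. Of all 12012 genes, the fit with a replicate block called 10437, 10512, 5998, 7448 and 7720, in the same order of comparisons. Of these calls 67.9%, 63.1%, 31.7%, 51.8% and 39.8% were above 0. A filter of 5 FPKM left the call of each member in each comparison as it was. Read depth is unknown, and 2 libraries a group limit every error given.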
